A study of Mus musculus with 10 samples.

Results

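The genes described here are 34 markers of non-leukocyte cells of the gut wall and spleen, of 22607 genes measured: 5 fibrillar collagens, 7 other collagens, 5 further matrix proteins, 3 mesenchymal surface proteins, 5 genes of blood endothelium, 2 of lymphatic endothelium, 4 of smooth muscle and 3 of glia. They are a list of named markers, drawn up with earlier results of these data known, and were followed through 10 mRNA sequencing libraries of antigen-presenting cells sorted from wild-type C57BL/6 mice aged 8 weeks. The 5 groups, of 2 libraries each, were MHCII+ cells of the colon, MHCII+ cells of the spleen, and colonic cells sorted as CD11c single-positive (CD11c+), CD11b single-positive (CD11b+) or positive for both integrins (CD11b+CD11c+). The tissue of each group was read from abbreviated titles together with the design text, and further gates are not stated in the labels. All 5 groups were sorted on MHCII, CD11b or CD11c, so none was sorted as stroma.

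Fibroblasts secrete the collagens and most of the matrix proteins of the lamina propria. Fibrillar collagens form the tensile fibres, collagen IV forms the sheet of basement membranes, collagen VI forms beaded filaments, and smooth muscle cells carry a contractile gene programme of their own. Several genes that are used to mark these cells are also made by leukocytes: Fn1 and Lyve1 by macrophages, Thy1 by T cells and innate lymphoid cells, Pecam1 by many myeloid cells and platelets, and Vwf by megakaryocytes and platelets.

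The libraries held 12806139 to 41769042 estimated counts. Levels of 1 gene in different groups are given as CPM, read counts relative to library size, scaled within the 4 MHCII+ libraries and, separately, within the 6 integrin-sorted libraries. Between these sets, batch and group cannot be told apart, so levels across them are a description. Levels of different genes are compared in TPM, the relative number of transcripts, which is per length. Whether both libraries of a group stem from different mice is not stated, so each p-value reflects the variation of these libraries alone, possibly technical. An exact permutation test of 2 against 2 libraries cannot go below p = 0.3333, and the tests given are those of edgeR across all genes. The leukocyte gene Ptprc (CD45) was at 1166 ± 5.57 CPM in colonic and 3123 ± 12.1 CPM in splenic MHCII+ cells (SD, n = 2), and its level ranged from 1331 to 1411 CPM over the means of the integrin-sorted groups. Libraries 1 and 2 of the CD11c+ group stood apart in 10 macrophage markers, which summed to 293 and 1339 CPM, and in 10 T cell and innate lymphoid markers, which summed to 1091 and 585 CPM. In bulk libraries, fewer cells of a type and less RNA per cell cannot be told apart.

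The sequences that bear on the results below lie in Fn1, which encodes fibronectin (chr1:71585520-71653200, minus strand, mm10). Fibronectin is made with or without 2 extra type III domains, EIIIB and EIIIA, each encoded by 1 cassette exon. As background, plasma fibronectin of the liver lacks both, and fibroblasts and other tissue cells include them to a varying degree. Both exons are shown in capitals, 5′ to 3′ on the coding strand, with 10 bases of the spliced neighbouring exons in lower case, because the share of Fn1 transcripts that hold them differed between the sorted groups. Exon 25 of the longest form (EIIIB) covers 273 bases at chr1:71613763-71614035, and exon 33 (EIIIA) covers 270 bases at chr1:71603660-71603929. Both lie within the coding sequence.
Fn1 exon 25: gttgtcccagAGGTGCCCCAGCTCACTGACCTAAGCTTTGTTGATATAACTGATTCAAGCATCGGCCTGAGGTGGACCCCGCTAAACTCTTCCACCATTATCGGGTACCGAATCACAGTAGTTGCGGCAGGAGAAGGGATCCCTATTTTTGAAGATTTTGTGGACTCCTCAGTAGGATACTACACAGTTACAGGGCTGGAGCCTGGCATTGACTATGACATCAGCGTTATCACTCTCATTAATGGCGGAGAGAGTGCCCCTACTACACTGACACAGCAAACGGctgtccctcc
Fn1 exon 33: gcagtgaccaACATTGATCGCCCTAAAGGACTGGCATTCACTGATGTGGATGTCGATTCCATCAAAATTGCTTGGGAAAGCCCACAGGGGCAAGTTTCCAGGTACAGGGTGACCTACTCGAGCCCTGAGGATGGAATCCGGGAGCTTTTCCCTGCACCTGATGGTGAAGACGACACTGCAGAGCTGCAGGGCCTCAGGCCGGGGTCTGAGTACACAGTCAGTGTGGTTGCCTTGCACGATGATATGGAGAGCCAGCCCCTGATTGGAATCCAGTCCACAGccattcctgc

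Exon 25 was in a small share of the Fn1 of 3 groups and in a larger share in CD11c+ and CD11b+ cells. It was in 26.5 and 30.9% of Fn1 TPM in the 2 CD11c+ libraries, in 9.19 and 12.03% in the CD11b+ libraries, and in 2.33 to 3.01% in the CD11b+CD11c+ libraries. In MHCII+ cells it was in 2.62 and 2.63% in the colon and in 0.689 and 1.61% in the spleen. The CD11c+ libraries were the highest, the CD11b+ libraries came next, and neither group overlapped with any other. For exon 33 the shares were closer together: 26.5 and 30.9% in CD11c+ cells, 17.1 and 18.3% in CD11b+ cells, 14.2 and 15.4% in CD11b+CD11c+ cells, 14.5 and 15.05% in colonic MHCII+ cells, and 10.4 and 13.04% in splenic MHCII+ cells. In CD11c+ cells the shares of both exons were equal, since the other forms with exon 33 were near 0 there. The denominator holds the annotated coding transcripts that span the exon and its neighbours, 7 for each exon, and only 1 of them holds exon 25. The shares rest on the division of reads among transcripts by kallisto, for which the deposited tables give no error, and no test was run on them.

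The CD11c+ cells, with the largest share of exon 25, had the least Fn1 in total. Fn1 was at 170 and 222 CPM in CD11c+ cells, 1927 and 1354 CPM in CD11b+CD11c+ cells, and 1491 and 1350.1 CPM in CD11b+ cells. The CD11c+ libraries lay far below the others, while those of CD11b+CD11c+ and CD11b+ cells overlapped. The level was 8.38-fold higher in CD11b+CD11c+ than in CD11c+ cells (log2 fold change 3.07 ± 0.22 SE, edgeR adjusted p = 0.000508) and 7.26-fold higher in CD11b+ than in CD11c+ cells (2.86 ± 0.22 SE, edgeR adjusted p = 0.000418). In MHCII+ cells Fn1 was at 1072 and 1346 CPM in the colon and 842 and 863 CPM in the spleen. That difference, 1.42-fold with edgeR adjusted p = 0.0161, lost its call in 5 of 12 alternatives, among them leaving out either splenic library (adjusted p = 0.0698 and 0.0514).

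Split by transcript, the 2 kinds of Fn1 had different levels across the groups. The transcript with exon 25 was at 0.443 and 1.15 TPM in splenic MHCII+ cells, 2.00 and 2.49 TPM in colonic MHCII+ cells, 2.18 to 4.57 TPM in CD11c+ and CD11b+CD11c+ cells, and 10.1 and 11.5 TPM in CD11b+ cells. Relative to Col3a1 TPM in the same library this was 2.999 to 5.56% in 7 of the 10 libraries, 8.45% in CD11b+CD11c+ library 1, and 16.3 and 8.49% in the splenic libraries 1 and 2. All other Fn1 transcripts together ranged from 11.3% of Col3a1 TPM in CD11c+ library 1 to 2641% in splenic library 1. Among the integrin subsets, macrophage markers were lowest in CD11c+ cells, as was total Fn1. Their sum was 9596 and 12442 CPM in CD11b+CD11c+, 8191 and 9197 CPM in CD11b+, and 293 and 1339 CPM in CD11c+ libraries. All 10 markers were higher in CD11b+ and in CD11b+CD11c+ than in CD11c+ cells. Within the CD11b+CD11c+ and the CD11b+ pair, the library with the higher sum had the lower total Fn1. In the CD11c+ pair it had the higher total Fn1. The part of macrophages in the Fn1 level was not tested. The 5 genes outside the list whose group means ran closest to those of Fn1 were Wfdc17, Egr2, Tlr4, Anxa3 and Adora2b, at root mean square distances of 0.12 to 0.21 on the log2(CPM + 1) scale over 5 group means.

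**Figure D1:**
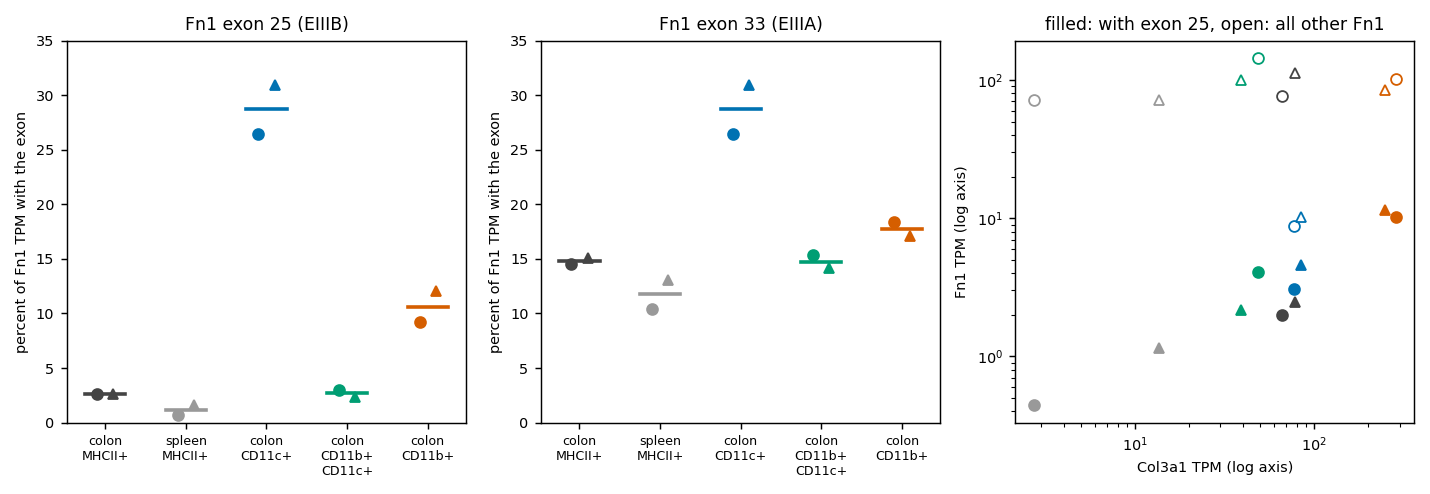
Share of Fn1 TPM with exon 25 (left) and exon 33 (middle) in percent for each library, with the mean of each group as a bar, and TPM of the transcript with exon 25 (filled) and of all other Fn1 transcripts (open) against Col3a1 TPM on log axes (right; group colours as in the left panels). Circles are library 1 and triangles library 2; the 2 CD11c+ libraries stand highest for exon 25, at 26.5 and 30.9%, and in the right panel that transcript is highest, at 10.1 and 11.5 TPM, in the CD11b+ libraries that also hold the most Col3a1.

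The first comparison asked how colonic and splenic MHCII+ cells differ. Of the 34 genes, 30 were tested, and 25 were higher in the colon, 4 were lower (Thy1, Pecam1, Cdh5 and Kdr) and 1 (Vwf) was not called. The median log2 fold change was 2.90, against 0.02 over all genes tested. With Prox1 set to its lower bound the median was also 2.90. The background was high: 60.3% of the 15076 genes tested were called, 31.6% higher and 28.7% lower in the colon. Emcn, S100b, Sox10 and Gfap did not pass the filter on low counts in either set.

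All 5 fibrillar collagens, all 7 other collagens and all 5 matrix proteins were higher in colonic MHCII+ cells. Col3a1, the chain of collagen III, was at 584 and 679 CPM in the colon and at 22.1 and 103 CPM in the spleen. The libraries of the 2 tissues did not overlap, and the 2 splenic libraries differed from each other. The difference was 10.1-fold (log2 fold change 3.34 ± 0.65 SE, edgeR adjusted p = 0.00479), with a range of 2.60 to 4.82 on the log2 scale when splenic library 1 or 2 was left out. Col5a1, Col5a2 and Fbn1, which encode the chains of collagen V and the microfibril protein fibrillin 1, were 10.4-, 9.96- and 10.6-fold higher. Col4a1 and Col4a2, the chains of basement membrane collagen, were 9.66- and 9.04-fold higher. Smaller differences were measured for Col14a1 (3.70-fold), a collagen on the surface of fibrils, and for Sparc (3.83-fold), a matrix glycoprotein that binds collagen. Among the receptors, Pdgfra (5.03-fold) and Pdgfrb (4.86-fold), which bind platelet-derived growth factors on fibroblasts and pericytes, were higher in the colon. The call of Pdgfra was lost in 4 of 12 alternatives. As for Col3a1, these folds depended on the splenic library: without splenic library 1 and without library 2, the log2 fold change was 2.67 and 4.66 for Col5a1, 2.60 and 4.61 for Col5a2, 2.59 and 5.15 for Fbn1, 2.62 and 4.34 for Col4a1, and 2.55 and 4.17 for Col4a2. It was 1.499 and 4.19 for Pdgfra, 1.54 and 3.70 for Pdgfrb, and 1.46 and 2.44 for Col14a1. Thy1 (CD90), a surface protein of fibroblasts that T cells also carry, was the exception among the mesenchymal genes, at 11.5 and 13.3 CPM in the colon and 23.8 and 34.2 CPM in the spleen, 2.35-fold lower in the colon (edgeR adjusted p = 0.00292).

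Muscle genes were far lower in the spleen. Myh11, smooth muscle myosin heavy chain, was at 35.3 and 33.9 CPM in the colon and 0.282 and 0.937 CPM in the spleen, a 59.0-fold difference (log2 fold change 5.88 ± 0.44 SE, edgeR adjusted p = 6.88e-05), and the log2 fold change was 5.19 without splenic library 1 and 6.91 without library 2. Des, the muscle intermediate filament desmin, had 358 counts in the colon and 2 in the spleen, a ratio of 287 (exact 95% interval 79.0 to 2383, counting error only). Acta2, smooth muscle actin, and Tagln, the actin-binding protein transgelin, were 6.95- and 7.31-fold higher, at 3.73 and 5.83 CPM and at 4.16 and 3.87 CPM in the spleen. Of 15 further smooth muscle and pericyte genes, 14 were tested and 10 were higher in the colon, with 0 lower. Mylk, the myosin light chain kinase, was at 32.3 ± 1.53 against 6.42 ± 3.61 CPM (SD, n = 2).

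Endothelial genes split. Of the 5 genes of blood endothelium, 3 were higher in the spleen, 1 (Vwf) was not called and 1 (Emcn, with 4 counts in the colon and 0 in the spleen) was not tested. Pecam1 (CD31) was at 22.0 and 24.1 CPM in the colon and 111 and 103 CPM in the spleen, 4.65-fold lower in the colon (log2 fold change -2.22 ± 0.11 SE, edgeR adjusted p = 1.23e-05). Kdr, the VEGF receptor of endothelium, was 5.18-fold lower in the colon, at 2.13 and 2.75 against 13.6 and 11.4 CPM. Cdh5, the adherens junction cadherin of endothelium, was 4.64-fold lower in the colon but rested on 0.700 and 1.29 against 6.15 and 2.84 CPM, and its call was lost without splenic library 1 (adjusted p = 0.141). Vwf, von Willebrand factor, was at 10.4 and 15.5 against 17.0 and 20.9 CPM (edgeR adjusted p = 0.0789). The lymphatic genes went the other way. Lyve1, a hyaluronan receptor of lymphatic vessels and of some macrophages, was at 22.1 and 20.9 CPM in the colon and 1.03 and 0.725 CPM in the spleen, 24.1-fold higher in the colon (edgeR adjusted p = 2.14e-05). Prox1, the transcription factor that specifies lymphatic endothelium, had 49 and 26 counts in the colonic and 0 in both splenic libraries, so it was at least 19.6-fold higher (floor of 3 counts per library).

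Other cell types moved between the tissues as well. Of 10 epithelial markers, all were higher in the colon, and their sum was 6119 and 5908 CPM against 23.6 and 28.4 CPM. The 8 leukocyte markers summed to 4704 and 4843 CPM in the colon and 9443 and 9944 CPM in the spleen, and 7 of them were lower in the colon. Platelet and megakaryocyte markers, 8 in all, summed to 63.7 and 61.8 CPM in the colon and 10.4 and 13.9 CPM in the spleen, but most of this sum was Pf4 (platelet factor 4), at 50.3 ± 0.365 against 0.799 ± 0.366 CPM (SD, n = 2). Of the 6 platelet markers tested, 1 was higher in the colon, 2 were lower and 3 were not called. Macrophage markers summed to 2697 and 2389 CPM in the colon and 1267 and 1405 CPM in the spleen, with 7 of 10 higher and 1 lower in the colon, where Lyve1 and Fn1 were also higher. The 10 T cell and innate lymphoid markers summed to 366 and 435 CPM in the colon and 281 and 342 CPM in the spleen, with 5 higher and 4 lower in the colon, whereas Thy1 was lower there. The part of these cells in the 34 genes was not tested. Pecam1 ran closest to Gm8113, Gpr141, Sash3, Cd37 and Pik3cd over the 5 groups, at distances of 0.10 to 0.17. Of 20 further endothelial genes, 14 were tested between the tissues, with 5 higher in the colon, 4 lower and 5 not called, and a median log2 fold change of 1.56. The most abundant 2 went in opposite directions: Eng, a TGF-beta co-receptor, was at 20.0 ± 1.33 against 9.12 ± 0.816 CPM and Flt1, a VEGF receptor, at 6.42 ± 4.13 against 19.3 ± 0.846 CPM (SD, n = 2).

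**Figure D2:**
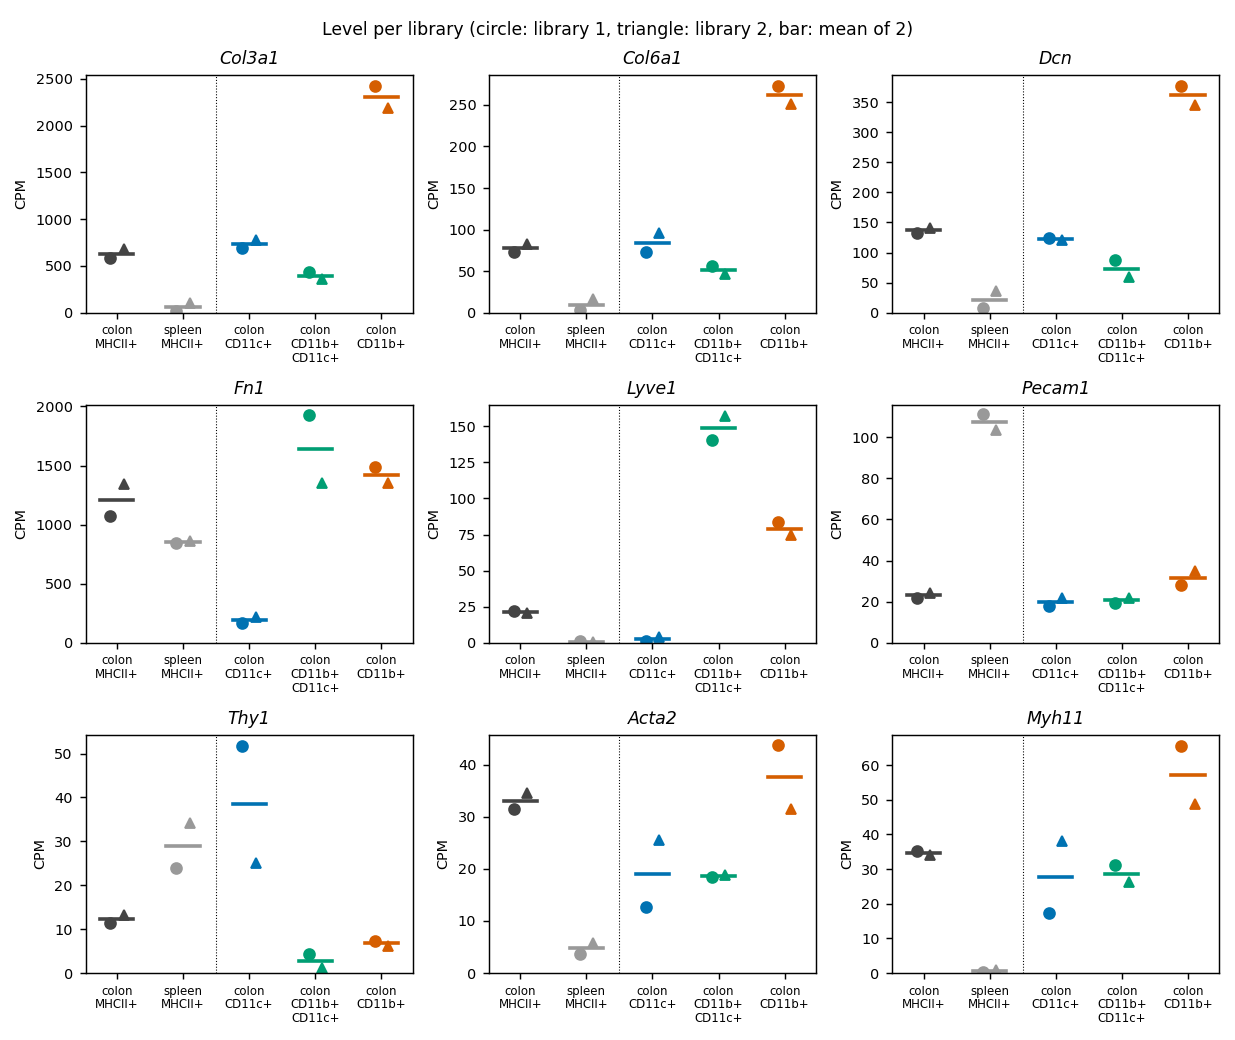
CPM of 9 genes in each library (circle, library 1; triangle, library 2; bar, mean of the 2), scaled within the 2 sets that the dotted line divides; the vertical axes start at 0 and differ between panels. Collagen genes and Dcn are highest in CD11b+ cells, Fn1 is lowest in CD11c+ cells, Lyve1 is highest in CD11b+CD11c+ cells, Pecam1 is highest in splenic cells, and Thy1 is low in both CD11b+ groups.

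The second comparison was among the colonic integrin subsets, whose 3 contrasts share libraries. Between CD11b+ and CD11c+ cells, 25 of the 30 tested genes were higher in CD11b+ cells, 1 (Thy1) was lower and 4 (Cdh5, Kdr, Vwf and Des) were not called. The median log2 fold change was 1.51, against -0.02 over all genes. Of the 14225 genes tested, 52.0% were called, 27.0% higher and 25.0% lower.

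The 12 collagens and 4 of the 5 matrix proteins were 2.62- to 3.54-fold higher in CD11b+ cells, and the matrix protein Fn1, described above, 7.26-fold. Col3a1 was at 2427 and 2191 CPM in CD11b+ and at 695 and 775 CPM in CD11c+ cells, a 3.14-fold difference (log2 fold change 1.65 ± 0.14 SE, edgeR adjusted p = 0.000494). The other 4 fibrillar collagens were 2.96- to 3.10-fold higher, and the 7 other collagens 2.66- to 3.54-fold, with Col14a1 at the top and Col6a3 at the bottom. Col1a1, a chain of collagen I, was at 625 and 569 CPM in CD11b+ and 172 and 213 CPM in CD11c+ cells. Col4a1 was at 311 and 268 against 89.8 and 116 CPM. Col6a1, a chain of collagen VI, was at 273 and 251 against 72.9 and 95.9 CPM. Fibrillar, basement membrane and filament collagens were thus all higher in both CD11b+ libraries. Dcn and Lum, small leucine-rich proteoglycans that bind collagen fibrils, were 2.95- and 2.75-fold higher, Sparc 2.998-fold and Fbn1 2.62-fold. In none of these 16 genes did the libraries of the 2 groups overlap, but the share of all genes without overlap was not counted. Pdgfra was 2.68-fold and Pdgfrb 2.43-fold higher. Of 22 further fibroblast and matrix genes, 20 were tested and all 20 were higher, among them Postn (periostin), at 559.9 ± 45.5 against 174 ± 4.38 CPM, and Fbln1 (fibulin 1), at 206 ± 24.97 against 64.7 ± 6.17 CPM. Of 12 collagen processing enzymes, 9 were higher, while the disulfide isomerase P4hb was at 446 ± 1.44 against 485 ± 48.4 CPM (edgeR adjusted p = 0.339). Epithelial markers also summed higher in CD11b+ cells, at 1313 and 886 against 498 and 609 CPM, with 7 of 10 called higher; their part was not tested.

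The 4 muscle genes of the list differed less and less surely. Myh11 was at 65.4 and 48.8 CPM in CD11b+ and 17.3 and 38.1 CPM in CD11c+ cells. The libraries did not overlap, and the 2.07-fold difference was just called (edgeR adjusted p = 0.0492). Acta2 (1.98-fold, adjusted p = 0.0451) and Tagln (2.04-fold, adjusted p = 0.0357) were close to it. These edgeR calls were lost in 8, 6 and 5 of 13 alternatives for Myh11, Acta2 and Tagln. Des was at 15.5 and 9.14 against 2.09 and 9.77 CPM, which overlapped. Of the 15 further smooth muscle and pericyte genes, 14 were tested here. In CD11b+ cells 10 of them were higher, 1 was lower and 3 were not called, with a median log2 fold change of 1.295. Among the higher ones, Mylk was at 45.5 ± 4.12 against 9.38 ± 2.43 CPM (SD, n = 2, edgeR adjusted p = 0.000546).

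Thy1 again ran against the other mesenchymal genes. It was at 51.7 and 25.1 CPM in CD11c+, 4.34 and 1.24 CPM in CD11b+CD11c+, and 7.38 and 6.23 CPM in CD11b+ libraries. It was 5.68-fold lower in CD11b+ than in CD11c+ cells (edgeR adjusted p = 0.00877), a call that was lost without either CD11b+ library (highest adjusted p = 0.0675), and 13.5-fold lower in CD11b+CD11c+ cells (edgeR adjusted p = 0.00378). Of the 10 T cell and innate lymphoid markers, 8 were also lower in CD11b+ and 8 in CD11b+CD11c+ than in CD11c+ cells, and within the CD11c+ group library 1, at 1091 CPM, was above library 2, at 585 CPM, as for Thy1. Between the other 2 subsets the order differed: the markers summed to 339 and 324 CPM in CD11b+CD11c+ and 131 and 158 CPM in CD11b+ cells, while the Thy1 values were lower in CD11b+CD11c+ cells (edgeR adjusted p = 0.242). The closest genes to Thy1 over the 5 groups were Gimap1, Ets1, Gimap9, Gimap7 and Slain1, at distances of 0.29 to 0.37. The part of lymphoid cells in the Thy1 level was not tested.

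CD11b+CD11c+ cells had the lowest Col3a1 level of the 3 integrin subsets. Against CD11c+ cells, 2 genes were higher (Fn1 and Lyve1), 15 were lower and 13 were not called, with a median log2 fold change of -0.56 against -0.09 over all genes. Of all genes tested, 43.0% were called, 20.4% higher and 22.5% lower. Col3a1 was at 429 and 354 CPM in CD11b+CD11c+ cells, below both CD11c+ libraries, and the difference was 1.88-fold (log2 fold change -0.91 ± 0.13 SE, edgeR adjusted p = 0.00353). Lum was 2.21-fold lower, and the other called collagen and matrix genes were 1.54- to 1.82-fold lower. Col4a2, Col6a3, Col14a1 and Pdgfrb were not called, nor were the 4 muscle genes, whose fitted folds were at most 1.18 in either direction. These small differences were less stable: 4 genes (Sparc, Fn1, Lyve1 and Thy1) were called in every alternative, 7 genes were called without CD11b+CD11c+ library 2, and 4 genes in 1 fit over all 10 libraries.

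Against CD11b+ cells, 18 of the 30 tested genes were lower in CD11b+CD11c+ cells, 12 were not called and 0 were higher by edgeR. At an unadjusted edgeR p under 0.05, 1 gene (Lyve1) was higher and 22 were lower. The share of all genes at that unadjusted threshold was not counted. DESeq2 called 1 of the tested genes higher, beside 1015 higher over all genes. By edgeR at the adjusted threshold, the background was 9.63% of genes called, 3.79% higher and 5.84% lower. The median log2 fold change was -1.79 against 0.01 over all genes. All 12 collagens were lower, from 2.57-fold for Col14a1 to 5.89-fold for Col3a1, and so were Dcn, Lum, Sparc, Fbn1, Pdgfra and Pdgfrb. Lum, at 10.2 and 10.1 CPM against 62.5 and 60.7 CPM, had the largest fold, 6.07 (log2 fold change -2.60 ± 0.10 SE, edgeR adjusted p = 0.000846). Of the 20 tested further fibroblast and matrix genes, 18 were lower. Of 10 macrophage markers, 0 were called by edgeR, although their sums, 9596 and 12442 CPM in CD11b+CD11c+ and 8191 and 9197 CPM in CD11b+ cells, did not overlap.

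**Figure D3:**
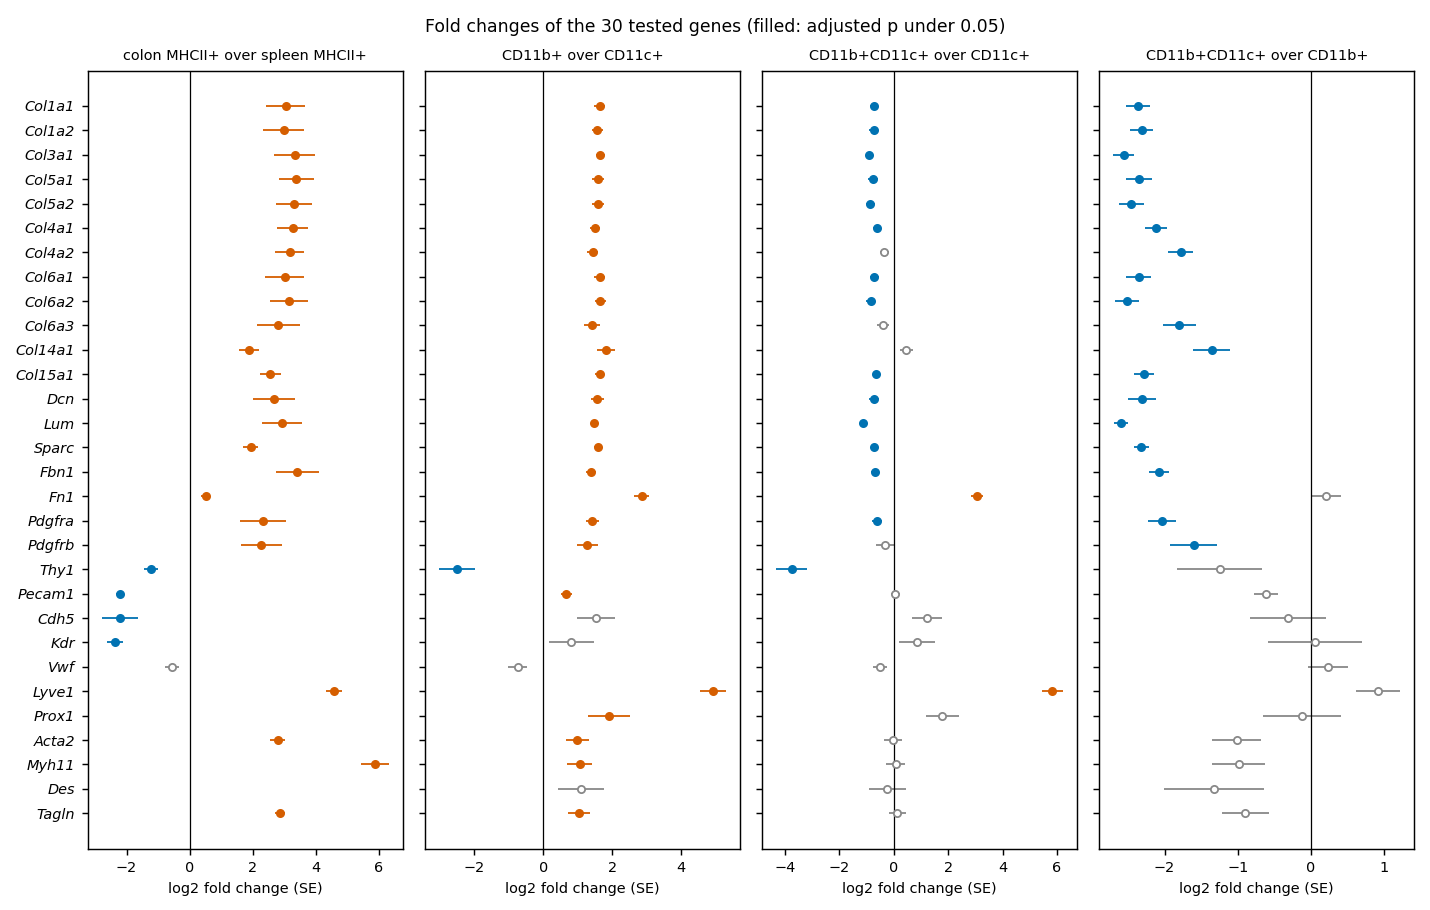
Log2 fold changes with standard errors of the 30 tested genes in the 4 comparisons (orange, higher; blue, lower; open grey, not called at an adjusted p of 0.05); the horizontal axes differ between panels, and Prox1 and Des are left out of the first panel because the spleen had 0 and 2 counts. Collagen and matrix genes lie on 1 side in each panel, but for Fn1 in the third and last panels and Col14a1 in the third. On the other side lie Thy1 in the first and second panels, Lyve1 in the third and last, and the tested blood endothelial genes in the first.

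Lyve1 followed the CD11b+ groups. It was at 1.55 and 3.92 CPM in CD11c+, 141 and 157 CPM in CD11b+CD11c+, and 83.9 and 74.5 CPM in CD11b+ libraries, and no 2 groups overlapped. It was 56.7-fold higher in CD11b+CD11c+ than in CD11c+ cells (log2 fold change 5.82 ± 0.39 SE, edgeR adjusted p = 0.000448) and 30.1-fold higher in CD11b+ than in CD11c+ cells (4.91 ± 0.38 SE, edgeR adjusted p = 0.000423). Between the 2 CD11b+ groups it was 1.88-fold higher in CD11b+CD11c+ cells, which was not called by edgeR (adjusted p = 0.124). Prox1, the other lymphatic gene, had 7 and 15 counts in CD11b+CD11c+, 11 and 16 in CD11b+, and 7 and 3 in CD11c+ libraries, or at most 1.17 CPM. Its call in CD11b+ against CD11c+ cells (edgeR adjusted p = 0.0372) was lost in 10 of 13 alternatives. The macrophage sums given with Fn1 were, like Lyve1, lowest in CD11c+ and highest in CD11b+CD11c+ cells. The part of macrophages in the Lyve1 level was not tested.

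Of the 5 genes of blood endothelium, 1 (Pecam1) was called in CD11b+ against CD11c+ cells and 0 by edgeR in the other integrin contrasts. Over all genes, 52.0% were called in CD11b+ against CD11c+ cells. The share was 43.0% in CD11b+CD11c+ against CD11c+ and 9.63% in CD11b+CD11c+ against CD11b+ cells. Pecam1 was at 28.2 and 35.1 CPM in CD11b+ cells, 18.1 and 21.8 CPM in CD11c+ cells and 19.4 and 22.0 CPM in CD11b+CD11c+ cells, and was 1.59-fold higher in CD11b+ than in CD11c+ cells (edgeR adjusted p = 0.0141; call lost without CD11c+ library 1 or CD11b+ library 2). Cdh5 was 2.88-fold higher in CD11b+ than in CD11c+ cells, which missed the threshold (edgeR adjusted p = 0.0559) and passed it in 3 of 13 alternatives. Cdh5 reached at most 3.81 CPM and Kdr at most 2.96 CPM in the integrin-sorted libraries. Emcn, the endothelial sialomucin endomucin, had 0 to 18 counts in each of the 10 libraries and was not tested. Its 26 counts in CD11b+ against 2 in CD11c+ cells gave a ratio of 18.3 (exact 95% interval 4.58 to 159), and its 10 counts in CD11b+CD11c+ cells a ratio of 7.78 (1.66 to 73.0), for counting error only. Vwf ranged from 10.4 to 23.6 CPM over the integrin-sorted libraries and was not called in any of the 3 contrasts. Of the 20 further endothelial genes, 17 were tested here. Against CD11c+ cells, 6 were higher and 2 lower in CD11b+ cells, and 1 was higher and 1 lower in CD11b+CD11c+ cells. Against CD11b+ cells, 0 were higher and 1 was lower in CD11b+CD11c+ cells. Eng was at 37.1 ± 2.50 CPM in CD11b+, 42.6 ± 6.90 CPM in CD11b+CD11c+ and 9.42 ± 2.55 CPM in CD11c+ cells (SD, n = 2). Flt1 was at 5.75, 3.32 and 2.93 CPM.

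The 3 glial genes of the list were near the detection limit. S100b, a calcium-binding protein of glia, had 12 counts over the 10 libraries, Sox10, a transcription factor of glia, had 8, and Gfap, an intermediate filament protein of glia, had 51. S100b was at 7 and 2 counts in colonic MHCII+ cells and 0 in both splenic libraries, a ratio of at least 2.17 with the floor of 3 counts per library. Of 12 further glial and neuronal genes, 5 or 6 were not tested in each set, and the most abundant, the receptor gene Erbb3, at 54.5 ± 7.82 CPM in colonic MHCII+ cells, is also expressed by epithelium. Of the 7 tested between the tissues, 3 were higher in the colon, 1 was lower and 3 were not called, beside 60.3% of all genes called. Ret, the next most abundant, was at 6.34 ± 1.52 CPM in the colon and 0.713 ± 0.145 CPM in the spleen (SD, n = 2). Of the 6 tested in the integrin set, 2 were higher in CD11b+ than in CD11c+ cells and 4 were not called. In CD11b+CD11c+ cells, 1 was lower than in CD11c+ cells and 0 were called against CD11b+ cells.

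Set side by side per length, the genes differed widely in level. Over all 10 libraries the highest mean TPM were those of Col3a1 (94.7), Dcn (90.5), Fn1 (82.5), Sparc (57.3) and Col1a2 (46.9), and the collagen V chains were at 6.96 (Col5a1) and 7.71 (Col5a2). Part of the Dcn level was on a short transcript, whose 19.2 estimated counts in colonic MHCII+ library 2 were worth 48.4 of 126 TPM. Of the 34 genes, 25 had their highest group mean in CD11b+ cells, and 26 their lowest in splenic MHCII+ cells. The exceptions at the top were Fn1, Lyve1 and Cdh5 (CD11b+CD11c+), Thy1 (CD11c+), Prox1 and S100b (colonic MHCII+), and Pecam1, Kdr and Vwf (splenic MHCII+). The place of Cdh5 rests on 0.656 estimated counts of a short transcript in CD11b+CD11c+ library 2, worth 1.55 of 2.37 TPM, and by CPM its mean there, 2.52, was below those of CD11b+ cells, 3.10, and splenic cells, 4.50. Together the 34 genes held 0.763 and 0.875% of the counts in CD11b+ libraries, 0.240 to 0.356% in the other colonic libraries, and 0.116 and 0.149% in the splenic libraries.

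Some collagen chains that are assembled into 1 molecule had similar proportions in all 10 libraries. The TPM ratio of Col1a1 to Col1a2 was 0.507 to 0.759 over the 10 libraries, that of Col5a1 to Col5a2 was 0.851 to 1.05, that of Col6a1 to Col6a2 was 0.820 to 0.962, and that of Col4a1 to Col4a2 was 1.71 to 2.34. These ratios depend on short transcripts. For Col1a2, 206 estimated counts of a short transcript were worth 10.7 of 36.6 TPM in colonic MHCII+ library 1. In library 2, 59.2 counts of it were worth 4.90 of 41.9 TPM. For Col4a1, 178 counts of a short transcript were worth 3.70 of 10.7 TPM in library 1 of that group. Col6a3, the other chain of collagen VI on the list, varied more, from 2.61 to 9.14% of Col3a1 TPM. Part of its TPM was on a short transcript of few counts. In CD11b+ library 1, 12.7 estimated counts of that transcript were worth 7.59 of 16.0 TPM, and CD11b+ library 2 had 0. The Col3a1 level varied by more than an order of magnitude over the same libraries, from 2.71 TPM in splenic library 1 to 288 TPM in CD11b+ library 1. Some of these pairs are also neighbours in the genome. Col4a1 (chr8:11198423-11312826, minus strand) and Col4a2 (chr8:11312805-11449287, plus strand) overlap at their starts, Col6a1 (chr10:76708792-76726168) lies beside Col6a2 (chr10:76595762-76623630), and Col3a1 (chr1:45311538-45349706) beside Col5a2 (chr1:45374321-45503282), all on mm10. Dcn and Lum are likewise close, at chr10:97479609-97518143 and chr10:97565128-97572703.

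Expressed as a percentage of Col3a1 TPM in the same library, the other genes varied to different degrees. Of 27 genes with at least 10 counts in every library, 10 varied by less than 3-fold over the 10 libraries and 10 by more than 10-fold. Col5a1 was the steadiest, at 6.73 to 8.57% of Col3a1. Kdr, Pecam1, Thy1, Cdh5, Vwf, Lyve1 and Fn1 were the most variable, by 988-, 430-, 405-, 232-, 201.1-, 198- and 174-fold. The leukocyte gene Ptprc, measured the same way, varied by 287-fold, and the epithelial gene Krt8 by 156-fold. Col15a1, a basement membrane collagen, varied by 21.8-fold, from 5.11 to 111.5%, with part of its TPM on short transcripts of few counts. The muscle genes were between the extremes: Acta2 varied from 6.60 to 77.6% of Col3a1, and Myh11 from 0.666 to 5.45%. Over the 5 group means, the genes outside the list that ran closest to Col3a1 were Bgn, Tnxb, Ltbp4, Spon2 and Serpinh1, at root mean square distances of 0.16 to 0.21. Bgn encodes the proteoglycan biglycan, and Serpinh1 a chaperone of procollagen.

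**Figure D4:**
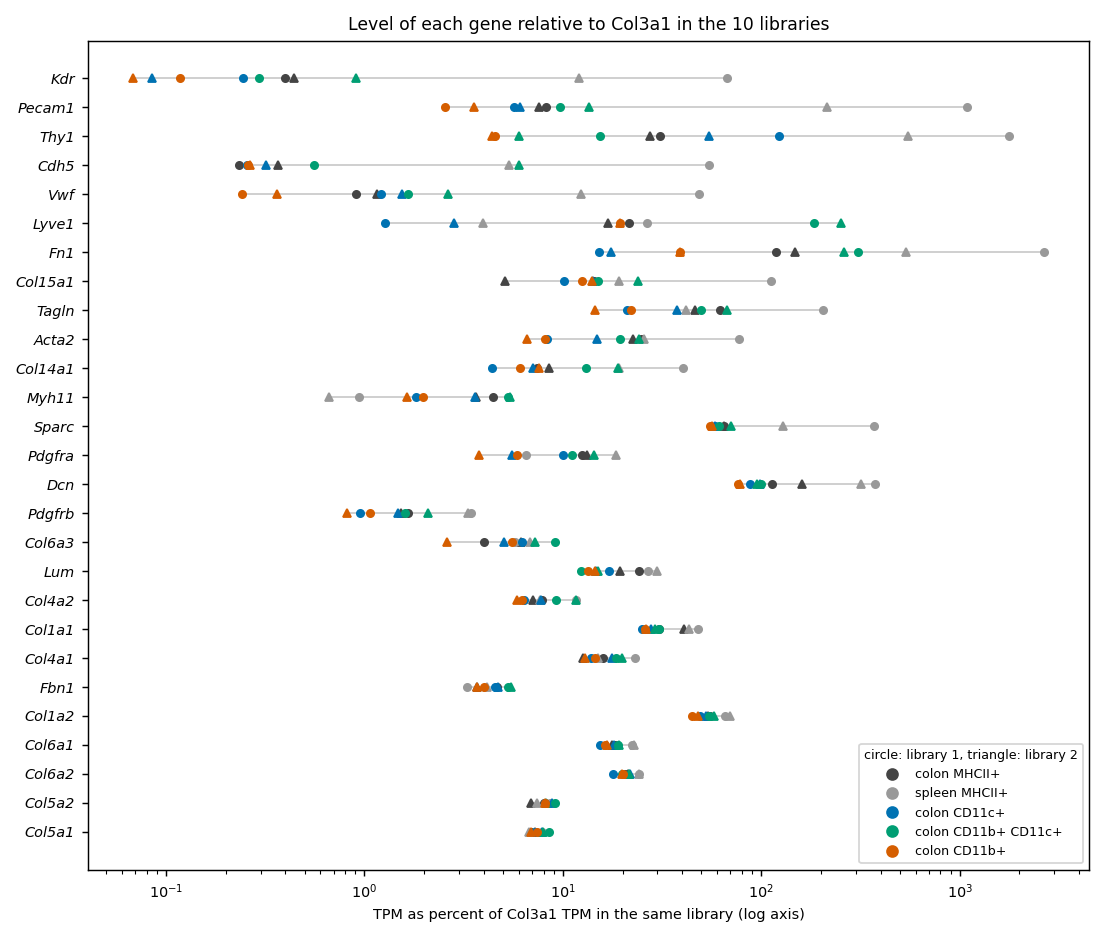
TPM of 27 genes as a percentage of Col3a1 TPM in the same library, on a log axis, for each of the 10 libraries (colour, group; circle, library 1; triangle, library 2). Col5a1 spans 6.73 to 8.57%, whereas Kdr, Pecam1 and Thy1 at the top span 988-, 430- and 405-fold.

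The 2 splenic libraries differed in many of these genes. Of 28 genes with at least 10 counts over the pair, 17 were more than 2-fold higher in splenic library 2, against 4.73% of all genes, and 1 was more than 2-fold higher in library 1. The 5 fibrillar collagens were higher in library 2 by a median of 4.20-fold, the 7 other collagens by 3.30-fold and the 5 matrix proteins by 5.26-fold. Dcn was at 6.90 and 36.3 CPM, Fbn1 at 1.46 and 8.61 CPM and Pdgfra at 0.939 and 6.10 CPM in libraries 1 and 2. Fn1, at 842 and 863 CPM, and the blood endothelial genes, with a median log2 ratio of -0.18, did not share this difference. The 22 further fibroblast and matrix genes summed to 33.1 and 93.7 CPM in the same libraries, the epithelial markers to 23.6 and 28.4 CPM and the leukocyte markers to 9443 and 9944 CPM. Without splenic library 2, 28 genes were called between colon and spleen, and without splenic library 1, 27 genes were called.

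Fewer genes differed in the other groups. Of the genes with at least 10 counts over a pair, 0 differed by more than 2-fold between the colonic MHCII+ libraries or between the CD11b+ libraries. In CD11c+ cells the 4 muscle genes were higher in library 2, by a median of 2.11-fold, with 3 of 4 over 2-fold, whereas the fibrillar collagens differed by a median of 1.21-fold and Thy1 had a log2 ratio of -1.04. Over all genes, 4.58% were more than 2-fold higher in CD11c+ library 2. In CD11b+CD11c+ cells the fibrillar collagens were lower in library 2 by a median of 1.26-fold, and Thy1 had a log2 ratio of -1.80. All 5 genes of blood endothelium were higher in library 2, by a median of 1.72-fold, with 2 of them (Cdh5 and Kdr) over 2-fold, as was Prox1, at 7 and 15 counts. Over all genes, 2.21% were more than 2-fold higher in CD11b+CD11c+ library 2.

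**Figure D5:**
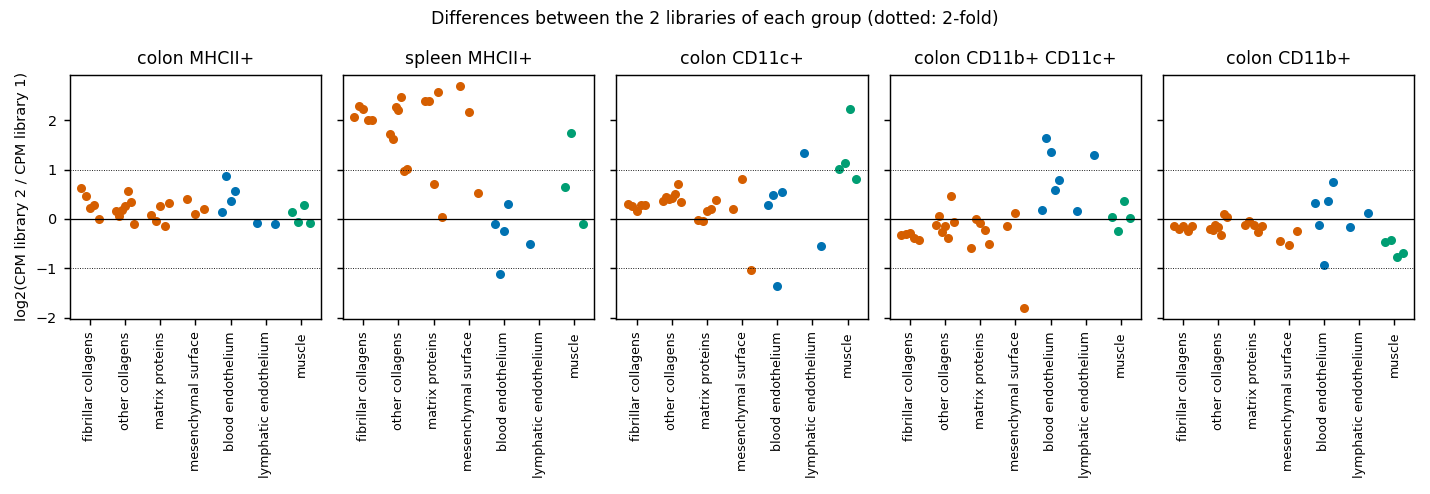
Log2 ratio of CPM in library 2 over library 1 for each gene with at least 10 counts over the pair, by group (panels) and gene list (orange, collagen, matrix and mesenchymal genes; blue, endothelial genes; green, muscle genes); dotted lines mark 2-fold. In splenic MHCII+ cells 17 of 28 genes lie above the upper line (4.73% over all genes), and in CD11b+ cells 0 of 32 (1.17% over all genes).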

How the data were processed

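The 10 libraries were mRNA sequencing of 5 sorted groups, 2 libraries each, made from small cell numbers by TRIzol extraction, poly(A) selection and a directional kit, per the labels' protocols. The authors deposited kallisto tables with estimated counts and TPM per transcript, per the file headers. Kallisto 0.44.0, sleuth and mm10 are named in the submitters' processing notes, and the release behind the index, its strand handling and any filter were not given in the sources used here. Lengths divisible by 3 made up 88.95% of the transcript table, so lengths are read as coding lengths. Of 66760 transcripts, 65747 matched GENCODE M21 and were summed to 22607 genes; the unmatched held 0.532 to 0.912% of counts.

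Summed estimated counts were rounded to whole numbers, filtered with filterByExpr (15076 genes kept in the 4 MHCII+ libraries, 14225 in the 6 integrin-sorted libraries) and tested with edgeR 4.0.16 (TMM, quasi-likelihood, Benjamini-Hochberg over all genes kept, threshold 0.05) in R 4.3.3, once per set. Common biological coefficients of variation were 0.180 and 0.174. The code was tested on simulated data. Libraries held 12806139 to 41769042 counts; intervals and floors cover counting error only. All 34 genes are named, companion lists are given as counts or sums, some with their most abundant members, and neighbours of Col3a1, Pecam1, Thy1 and Fn1 were ranked among genes of at least 10 mean CPM. The 34 genes and the lists were chosen with earlier results of these data known. Alternatives were other scalings, no count filter, DESeq2 1.42.0, an effective length offset, limma 3.58.1 on log2(TPM + 1) and log2(TPM + 0.1), a replicate block, 1 fit over all 10 libraries, and each library left out.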

Additional observations from a re-analysis of the deposited data

How the results depend on the processing

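No direction of a called gene reversed in any alternative run. The number of the 34 genes called between colonic and splenic MHCII+ cells was 29, with 27 to 29 when 1 library was left out and 24 to 30 in the other alternatives. For CD11b+ against CD11c+ cells it was 26 (21 to 27 and 20 to 29), for CD11b+CD11c+ against CD11c+ cells 17 (7 to 18 and 4 to 18), and for CD11b+CD11c+ against CD11b+ cells 18 (15 to 16 and 14 to 21). Called in every alternative were 23 of 29, 16 of 26, 4 of 17 and 14 of 18 genes.

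Genes lower in CD11b+ than in CD11c+ cells numbered 1, but 2 with total counts as the scaling, 2 with no count filter, 2 with the replicate block, and 0 to 2 with 1 library left out. In CD11b+CD11c+ against CD11c+ cells, 2 genes were higher (2 to 4 with 1 library left out, 4 without CD11b+CD11c+ library 1 or CD11c+ library 2) and 15 lower (5 to 15; 5 without CD11b+CD11c+ library 2). Without CD11b+CD11c+ library 2, with 1 library left in that group, fewer calls were also made over all genes. In 1 fit over all 10 libraries 4 genes were called there, 2 of them lower. Over all genes, that fit called 5777 in the same comparison, against 6110 in the main fit. In CD11b+CD11c+ against CD11b+ cells, 0 genes were higher by edgeR, and 1 with DESeq2, 1 with no count filter and 1 in the fit over all 10 libraries. The cause of these changes was not tested. Over all genes, this last comparison called 1370 genes, and 226 to 2029 under the alternatives.

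Correlations of same-numbered libraries were 0.333, -0.053 and 0.005. With 2 libraries per group, these values cannot decide whether the numbers pair the integrin-sorted libraries. With the replicate block, 26, 18 and 19 genes were called in the 3 integrin contrasts. No paired analysis was possible for the MHCII+ libraries because the splenic titles share 1 number.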
